A study of Mus musculus with 7 samples.

Results

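Ly6g, Ly6c2, Ly6e and Ly6a are 4 genes of the Ly6 family, and their transcripts were followed in single mouse neutrophils from healthy and inflamed tissue. The 4 genes were chosen by name and are among 28719 gene symbols listed in at least 1 count file and among 6677 listed in all 7. Neutrophils of healthy tissue were the cells in which S100a8 and S100a9 together made up at least 3% of UMIs (unique molecular identifiers, each standing for 1 captured transcript) and in which Cd79a and Cd79b together had fewer than 2 UMIs. Neutrophils of the inflammation experiment were the cells that the submitters' cell table assigns to a granulocyte (GN) reference population. This kept 17481 of 21763 deposited cells. Barcodes with more than 1 hashtag had been removed from the inflammation library before deposit, per the study's methods. No doublet caller was run on the healthy libraries, where the limit on Cd79a and Cd79b was the only step against doublets with B cells.

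Proteins of this family are small, disulphide-rich and held at the outer cell surface by a lipid anchor. Ly6G is the surface marker by which mouse neutrophils are usually recognised, and Ly6C, encoded by Ly6c2 and its close copy Ly6c1, is best known from inflammatory monocytes. The Gr-1 antibody binds Ly6G and also Ly6C. Ly6e and Ly6a, whose product is the stem cell antigen Sca-1, are known as genes induced by interferons.

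All mice were male C57BL/6J without a transgene. Healthy bone marrow, spleen and blood gave 1 library per tissue in each of 2 runs, with mice 6 weeks old in run 1 and 8 weeks old in run 2. A further 5 conditions, from 8-week-old mice, were marked by hashtag oligomers and captured as a single library. These were healthy blood, blood and joint of mice given K/BxN arthritogenic serum on day 0 and 2 and taken on day 7, and lavages of the peritoneum or lung 3 h after 25 ng of IL-1β at that site. Each of the 11 libraries or conditions, called pools here, held cells of 3 mice. All tissues within a run were taken from the same animals, and cells had been sorted for CD11b and Ly6G protein. Every level below is therefore that of cells already selected for the protein product of Ly6g.

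Of 10 neutrophil markers, S100a8 and S100a9 had been used to choose the healthy cells, and the other 8, among them Csf3r, Cxcr2 and Retnlg, had UMIs in every pool too. The kept cells summed to between 942688 UMIs in IL-1β peritoneum and 10293966 in arthritic joint, with a median per cell of 769 to 3681 UMIs. Any pair of libraries shared 0 to 36 cell barcodes. The spleen library of run 1 stood apart from that of run 2. Of its 1133 neutrophils, 461 took at least 5% of their UMIs from the granule genes Camp, Ngp, Ltf, Lcn2 and Chil3, against 58 of 1948 in run 2. Levels in spleen are given by run for this reason, and the contrast of marrow with spleen over all neutrophils is also given within each run.

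The 4 genes lie within 204 kb of chromosome 15 (GRCm38, GENCODE M21 annotation). Ly6e (ENSMUSG00000022587.14) spans 74955051 to 74959905 on the plus strand and Ly6a (ENSMUSG00000075602.10) 74994877 to 74998031 on the minus strand. Ly6c2 (ENSMUSG00000022584.14) spans 75108158 to 75111970 on the minus strand. Ly6g (ENSMUSG00000022582.4) follows it after 43.3 kb, from 75155240 to 75159126 on the plus strand. The coding sequences of Ly6g and Ly6c2 were identical in 76.9% of aligned positions and those of Ly6g and Ly6a in 83.1%, whereas Ly6e shared 49.8% with Ly6g. Ly6c2 shared 97.7% with Ly6c1. Reads of 96 bases were counted from the 3′ ends of transcripts, and of the 405 possible reads in the last 500 bases, 29 of Ly6c2 were also found in a Ly6c1 transcript and none of Ly6g, Ly6e or Ly6a matched another gene exactly. The upstream sequences of Ly6g and Ly6c2 are shown because this pair moved together across tissues and granule classes (r = 0.90 over the 11 pools). RefSeq's promoter table (GRCm38.p6) held a window for both, and for 2 of the 4 genes in all. Each sequence ends at the base before the annotated gene and is written 5′ to 3′ on the gene's own strand. Capitals mark 2 searched motifs, GAGGAAGT (an ETS-type site of the kind bound by PU.1) and TATAAA, on either strand.
Ly6g, chr15:75155011-75155239, plus strand: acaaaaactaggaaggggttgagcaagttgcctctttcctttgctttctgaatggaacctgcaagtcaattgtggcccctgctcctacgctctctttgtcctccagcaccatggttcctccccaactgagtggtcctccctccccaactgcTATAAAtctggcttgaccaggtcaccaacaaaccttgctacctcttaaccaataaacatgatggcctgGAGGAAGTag
Ly6c2, chr15:75111971-75112221, minus strand: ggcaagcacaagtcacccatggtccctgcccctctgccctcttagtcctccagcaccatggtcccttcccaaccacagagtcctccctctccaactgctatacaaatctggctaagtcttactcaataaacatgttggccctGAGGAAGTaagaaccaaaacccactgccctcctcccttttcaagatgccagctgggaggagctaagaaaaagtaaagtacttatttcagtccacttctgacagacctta

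In the best local alignment of the 2 upstream sequences, 84 of 105 positions were identical (80.0%). GAGGAAGT lay 10 to 3 bases before the annotated start of Ly6g and 109 to 102 bases before that of Ly6c2. Both copies lay outside the aligned stretch, but each shortly follows the same letters, aataaacatg. GAGGAAGT occurred in 2.16% of all 32851 promoter windows cut to the length used for Ly6g and in 2.45% at that of Ly6c2. TATAAA was found upstream of Ly6g only, and in 11.7% of windows of that length. Of 2 further motifs, TTGCNNAA (C/EBP-type) matched once in Ly6g, on the opposite strand, and in 9.02% of windows. The interferon-response motif GAAANNGAAA matched neither sequence and 2.71% of windows at the Ly6g length. A match describes letters and is not evidence of binding.

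Ly6g, the gene of the sorted marker, was high in marrow and low in blood. Its level in CPM (UMIs of the gene per 1000000 UMIs of the kept neutrophils) was 1161 and 859 in marrow of runs 1 and 2. Spleen held 1221 and 249 CPM and blood 409 and 154 CPM. Both marrow libraries lay above both blood libraries, while spleen of run 1 lay above the marrow libraries and spleen of run 2 between the blood libraries. Bone marrow exceeded blood 5.19-fold (log2 fold change 2.38, SE 0.49, FDR 0.0127, edgeR quasi-likelihood test with the run as a block, n = 2 pools per tissue). Leaving out 1 library at a time gave log2 1.38 to 3.09. In bulk sums of this kind, fewer cells carrying a transcript and less of it per cell cannot be told apart.

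**Figure D1:**
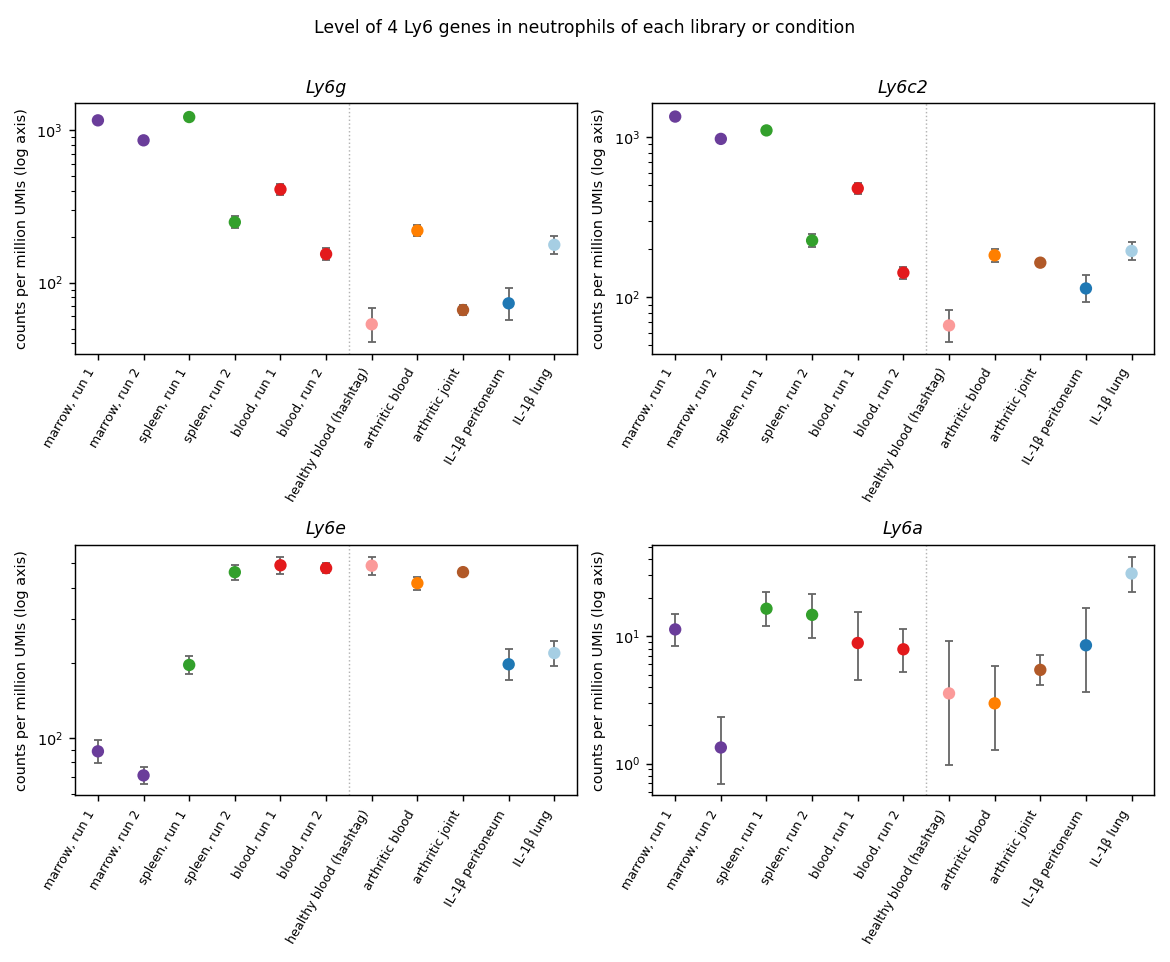
Level of each gene, in CPM on a log axis, in the neutrophils of 6 healthy libraries (left of the dotted line) and 5 conditions of the inflammation library (right). Points are pools and bars are exact 95% Poisson intervals, which cover counting error only. Ly6g and Ly6c2 were highest in marrow and in spleen of run 1, Ly6e was lowest in marrow, and Ly6a ranged from 1.34 to 31.04 CPM.

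Ly6c2 was likewise high in marrow and low in blood. Marrow held 1342 and 974 CPM, spleen 1100 and 226 CPM, and blood 478 and 142 CPM, with both marrow libraries again above both blood libraries. Marrow exceeded blood 5.79-fold (log2 2.53, SE 0.49, edgeR FDR 0.0102), with log2 1.47 to 3.31 on leaving out 1 library at a time. In marrow of run 1, a single cell held 142 of the 5699 Ly6c2 UMIs. The 10 monocyte markers examined summed to 48.7 and 50.5 CPM in marrow and to 164 and 129 CPM in blood, but did not move together. Of 7 tested, Csf1r and Adgre1 were called lower in marrow than in blood and the complement genes C1qa, C1qb and C1qc higher. C1qa stood at 6.12 and 7.03 CPM in marrow and had no UMI in either blood library. The part of such cells in the Ly6c2 levels was not tested.

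Ly6e ran the other way. Marrow held 88.5 and 70.9 CPM, spleen 196 and 461 CPM, and blood 491 and 478 CPM. Both marrow libraries lay below all 4 others, and the blood libraries lay close together. Ly6e was 4.99-fold lower in marrow than in blood (log2 −2.32, SE 0.30, edgeR FDR 0.00239) and 3.47-fold lower than in spleen (log2 −1.79, SE 0.30, edgeR FDR 0.0204). Platelet markers summed to 84.0 and 147 CPM in blood of runs 1 and 2, against 3.06 and 2.56 CPM in marrow. Erythroid markers summed to 705 and 30740 CPM in blood, against 912 and 306 CPM in marrow. The part of such cells in the Ly6e levels was not tested.

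Ly6a was scarce. Marrow held 11.3 and 1.34 CPM, spleen 16.4 and 14.7 CPM, and blood 8.84 and 7.89 CPM, which rested on 12 to 48 UMIs per library. The 2 marrow libraries lay on either side of blood. No tissue comparison of Ly6a was called (edgeR FDR 0.502 for marrow against blood, 0.624 for spleen against blood and 0.234 for marrow against spleen).

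Against blood, 11.4% of the 7605 genes tested were called higher in marrow and 12.8% lower. Of the 4 genes, 2 were called higher and 1 lower. Between spleen and blood none of the 4 was called (edgeR FDR 0.427 to 0.624), beside 0.131% of genes higher and 0.0657% lower. Between marrow and spleen Ly6e alone was called, with 0.631% of genes higher and 2.58% lower, while Ly6g gave a log2 difference of 0.98 (SE 0.49, edgeR FDR 0.349) and Ly6c2 one of 1.36 (SE 0.49, edgeR FDR 0.207). Within runs 1 and 2 marrow against spleen gave log2 −0.072 and 1.78 for Ly6g, 0.29 and 2.11 for Ly6c2, and −1.15 and −2.70 for Ly6e, with no test. DESeq2 called Ly6c2 here (FDR 0.0246). The Ly6e call was lost without the replicate block (edgeR FDR 0.246) and without blood of run 1 (0.0885) or run 2 (0.0806). 

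The marrow-to-blood calls of Ly6g and Ly6c2 depended on pairing the tissues of a run, since without the replicate block their edgeR FDRs were 0.185 and 0.191, and were also lost without blood of run 1 (edgeR FDR 0.151 and 0.121) or blood of run 2 (0.105 and 0.105). With every deposited cell kept in place of the neutrophils, no gene of the table was called and marrow against blood gave log2 2.50 for Ly6g, 2.28 for Ly6c2 and −1.50 for Ly6e. Ly6e between marrow and blood lost its call without blood of run 1 (edgeR FDR 0.0657). An exact permutation test of the spread between tissues, with labels shuffled over all 6 libraries (90 arrangements), cannot go below p = 0.0667 and takes no account of the mice that tissues of a run share. It gave 0.0667 for Ly6e, 0.333 for Ly6c2 and 0.467 for Ly6g and Ly6a, and says nothing of whether the calls hold.

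The share of cells with at least 1 UMI showed the same contrast after every cell was thinned to 500 UMIs. For Ly6g it was 38.5% and 30.2% in marrow, with 28.2% and 6.93% in spleen and 9.30% and 4.80% in blood. For Ly6c2 it was 44.6% and 34.8% in marrow against 12.4% and 4.64% in blood. For Ly6e it was 4.48% and 4.39% in marrow against 23.1% and 20.3% in blood. The 26 cells of blood of run 1 with fewer than 500 UMIs were left out. Without thinning, the marrow-minus-blood difference in the mean share of cells was 64.6 points for Ly6g and 66.6 points for Ly6c2.

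Other cells of the same libraries were used to gauge free RNA. In 1395 spleen cells of run 2 with B-cell genes (median 1436 UMIs, against 769 in neutrophils), Ly6g was seen in 0.215% and Ly6c2 in 1.08% at the same thinned depth. In 720 haemoglobin-rich blood cells of run 2 (median 2744 UMIs), Ly6g was seen in 0.139%, Ly6c2 in 0.417% and Ly6e in 1.53%. The neutrophil shares of Ly6g, Ly6c2 and Ly6e in these libraries lay above those of the haemoglobin-rich cells, and those of Ly6g and Ly6c2 above those of the B-gene cells. Other libraries had fewer such cells and some higher shares. In marrow of run 2, Ly6g and Ly6c2 were each seen in 2.23% of 269 B-gene cells, below the neutrophil shares there. In blood of run 1, Ly6c2 was seen in 6 of 23 B-gene cells (26.1%), above the 12.4% of neutrophils, and Ly6g in 0 of the 23 and in 1 of 34 haemoglobin-rich cells. In spleen of run 2, Ly6e was seen in 70.5% of the B-gene cells, and Ly6a in 12.5%. Among the kept neutrophils of that library, 8 B-cell markers still summed to 457 CPM, against 7.84 CPM in spleen of run 1, and their part in the spleen levels of Ly6e and Ly6a was not tested. Ly6a was seen in 0 of the 720 haemoglobin-rich cells, which allows a share of cells with a UMI of up to 0.511% (upper end of the exact Clopper-Pearson 95% interval), and in 0.265% to 0.565% of healthy neutrophils, a level not told apart from background.

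Whether the tissue differences held among cells of one granule class was examined next. Granule genes are transcribed at the myelocyte and metamyelocyte stages, so cells with at least 5% of UMIs from the 5 granule genes were called granule-high and those under 1% granule-low, and the granule genes were left out of the sums. In granule-low cells Ly6g stood at 698 and 650 CPM in marrow, against 214 and 148 CPM in spleen and 141 and 118 CPM in blood. Granule-high cells held 1494 and 1137 CPM in marrow, against 1844 and 985 CPM in spleen and 1280 and 1169 CPM in blood. Granule-high cells were higher in 6 of 6 libraries, by 5.91-fold (log2 2.56, SE 0.35, edgeR FDR 1.6e-05, library as a block).

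Ly6c2 gave a similar pattern. Granule-low cells held 1248 and 634 CPM in marrow, against 198 and 87.9 CPM in spleen and 199 and 110 CPM in blood, and granule-high cells between 871 and 1597 CPM in all 6 libraries. The rise was 5.43-fold (log2 2.44, SE 0.39, edgeR FDR 8e-05) and was smallest in marrow, at 0.30 and 0.92 on the log2 scale, against 2.51 to 3.75 in spleen and blood. Ly6e was lower in granule-high cells of all 6 libraries. It held 185 to 748 CPM in granule-low and 11.9 to 92.2 CPM in granule-high cells, a difference of 8.25-fold (log2 −3.05, SE 0.21, edgeR FDR 1e-08). Ly6a was higher in 3 of 6 libraries (log2 1.05, SE 0.53, edgeR FDR 0.118).

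Across the 5389 genes of this comparison 23.3% were called higher and 23.4% lower in granule-high cells. The 2 blood libraries contributed 125 and 24 granule-high cells. The classes say nothing of the order of cells within them.

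**Figure D2:**
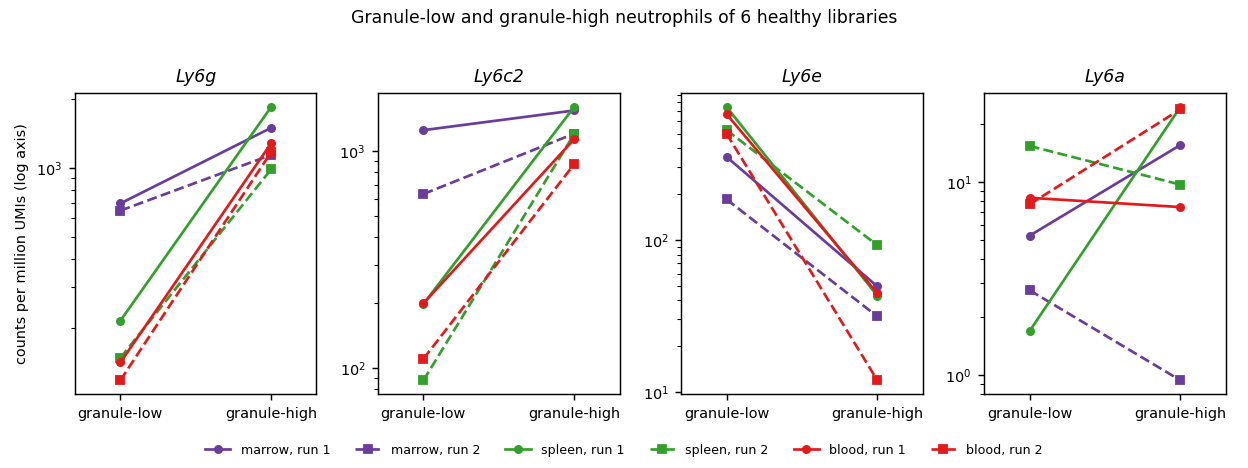
Level in CPM (log axis) in granule-low and granule-high neutrophils of the same library, with 1 line per library. Ly6g and Ly6c2 rose and Ly6e fell along every line, whereas Ly6a went up in 3 libraries and down in 3. In granule-low cells the marrow lines of Ly6g and Ly6c2 start above those of spleen and blood.

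Among granule-low cells alone, Ly6g and Ly6c2 were still higher in marrow than in the other tissues, and Ly6e lower. Ly6g was 6.60-fold higher than in blood (log2 2.72, SE 0.22, edgeR FDR 0.000308) and 4.80-fold higher than in spleen (edgeR FDR 0.000774). Ly6c2 was 7.52-fold higher than in blood (log2 2.91, SE 0.21, edgeR FDR 0.00021) and 8.48-fold higher than in spleen (edgeR FDR 0.000212). Ly6e was 1.82-fold lower than in blood (log2 −0.86, SE 0.20, edgeR FDR 0.0251) and 1.96-fold lower than in spleen (edgeR FDR 0.0184). Of the 5844 genes tested, 4.91% were higher and 4.65% lower in marrow than in blood, and 4.09% higher and 3.97% lower than in spleen. Between spleen and blood none of the 4 genes was called in granule-low cells (edgeR FDR 1.00 for each after rounding), where 0.0171% of genes were higher and 0.0856% lower. The spleen libraries, which stood at 1221 and 249 CPM of Ly6g over all neutrophils, gave 214 and 148 CPM here. The class was not matched for granule content between tissues. Cells under 0.5% of granule UMIs were 162 of 298 and 495 of 1187 in marrow. In spleen they were 452 of 588 and 1787 of 1866, and in blood 1094 of 1137 and 3439 of 3588. The part of this imbalance in the tissue differences was not tested.

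Interferon-induced transcripts were used as a further division, since Ly6e and Ly6a are known interferon targets. The 37 genes of the list (36 in the files, among them Isg15, Rtp4 and Slfn4) hold none of the 4 genes. They summed to 979 and 935 CPM in marrow, against 1872 and 2931 CPM in spleen and 3482 and 3086 CPM in blood. Of the 34 tested, 25 were lower in marrow than in blood and none was higher, where 12.8% of all genes were lower and 11.4% higher. Each cell was thinned to 500 UMIs, and cells with at least 3 UMIs of the list (interferon-high) were compared with cells that had 0 (interferon-low) inside each of 11 pools.

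Ly6e was higher in interferon-high cells of 11 of 11 pools. It rose from 58.5 to 208 CPM in marrow of run 1, from 52.8 to 238 in marrow of run 2, from 81.0 to 1037 in spleen of run 1 and from 347 to 749 in spleen of run 2. In blood it rose from 248 to 999.8 CPM in run 1 and from 358 to 728 in run 2. In arthritic joint it rose from 222 to 953 CPM and in arthritic blood from 326 to 676. The smallest rise was in IL-1β lung, from 184 to 265 CPM. The difference was 2.65-fold (log2 1.41, SE 0.18, edgeR FDR 1.1e-05, pool as a block). Tissues of a run share mice, so these pools are not all independent. In cells with no UMI of another cell type's markers Ly6e was higher in 10 of 11 pools, and hashtagged healthy blood held 403 CPM in interferon-low and 402 CPM in interferon-high cells.

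Ly6g was lower in interferon-high cells of 9 of 11 pools (log2 −0.73, SE 0.20, edgeR FDR 0.0265). The fall was from 556 to 160 CPM in blood of run 1 and from 1190 to 978 in marrow of run 1. Hashtagged healthy blood instead went from 42.8 to 92.9 CPM on 20 and 17 UMIs, and IL-1β lung from 182 to 258 CPM on 90 and 71 UMIs. All 5 granule genes were lower in interferon-high cells too (median log2 −2.29). In granule-low cells alone the difference in Ly6g was −0.14 (SE 0.10, edgeR FDR 0.537), and DESeq2 on all cells gave FDR 0.0509. The call was also lost without blood of run 1 (edgeR FDR 0.0709), blood of run 2 (0.0524) or spleen of run 2 (0.0508). Ly6c2 did not pass over all pools (log2 −0.10, SE 0.25, edgeR FDR 0.871). Ly6a was under the filter on low counts. Over the 3379 genes tested, 5.42% were higher and 5.77% lower in interferon-high cells. In granule-low cells Ly6e kept its rise (log2 1.07, SE 0.10, edgeR FDR 4.4e-10) and Ly6c2 was higher (log2 0.49, SE 0.14, edgeR FDR 0.0225), where 4.05% of genes were higher and 2.78% lower.

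**Figure D3:**
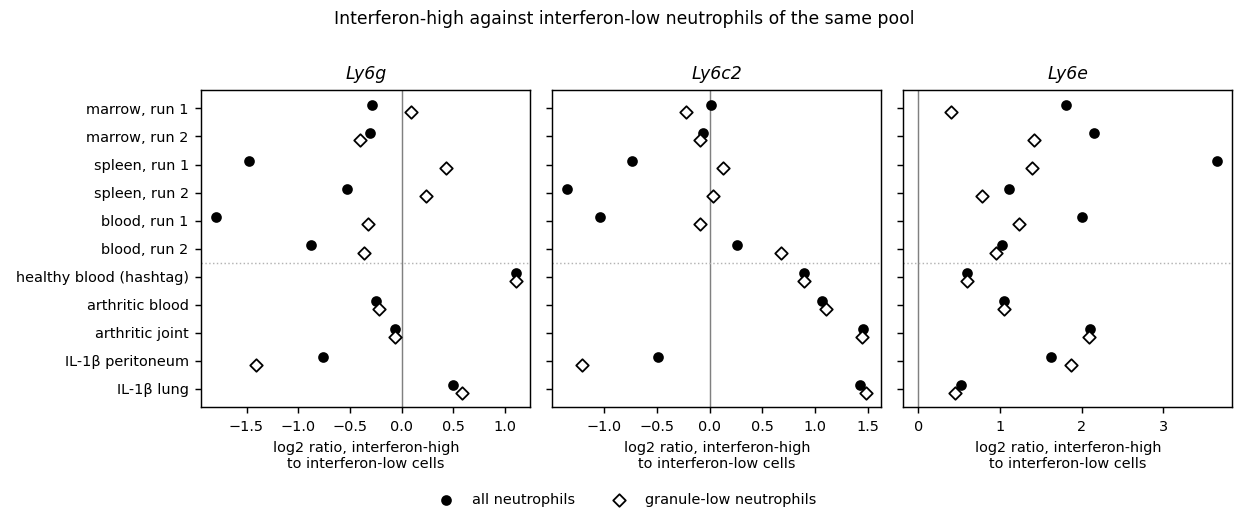
Log2 ratio of CPM in interferon-high to interferon-low neutrophils of the same pool, for all neutrophils (filled circles) and granule-low neutrophils (open diamonds). Healthy libraries lie above the dotted line and the inflammation library below it. Ly6e is right of 0 in all 11 pools, Ly6g left of 0 in 9 of 11 for all neutrophils, and Ly6c2 is, for all neutrophils, between 0.90 and 1.45 in 4 of 5 conditions of the inflammation library.

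The behaviour of Ly6c2 differed between pools. Fitted over the 6 healthy libraries, Ly6c2 was lower in interferon-high cells (log2 −0.69, SE 0.21, edgeR FDR 0.045), where 7.35% of genes were higher and 7.57% lower. The fall was seen in spleen (log2 −0.73 and −1.34) and blood of run 1 (−1.03), whereas marrow gave 0.012 and −0.062 and blood of run 2 gave 0.26. In granule-low cells the 6 libraries lay between −0.22 and 0.68. In the conditions of the inflammation library it was higher (log2 1.03, SE 0.16, edgeR FDR 2.4e-05), where 3.46% of genes were higher and 0.918% lower. It rose from 107 to 293 CPM in arthritic joint, from 156 to 325 in arthritic blood and from 101.2 to 273 in IL-1β lung, and went from 100.7 to 71.7 CPM in IL-1β peritoneum. The test of the difference between the 4 inflamed conditions and the 7 healthy pools gave 1.63 on the log2 scale (SE 0.35, edgeR FDR 0.0322). Of 3379 genes, 0.414% were called in that direction and 0.0888% in the other. Hashtagged healthy blood also had a higher value in interferon-high cells, 120 against 64.2 CPM on 22 and 30 UMIs, and all 4 inflamed conditions came from 1 library, so inflammation and the library it was captured in cannot be told apart. In granule-low cells the same test gave 1.01 (SE 0.22, edgeR FDR 0.134). The 10 monocyte markers summed to 101.4 to 276 CPM in the inflammation library. In cells with no UMI of any B, T, NK or monocyte marker, Ly6c2 went from 210 to 504 CPM in arthritic blood, from 105 to 274 in the joint and from 109 to 253 in the lung. It went down from 101.3 to 75.9 CPM in the peritoneum and from 42.4 to 12.96 CPM in hashtagged healthy blood, the latter on 8 and 1 UMIs.

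Inflamed conditions were set against hashtagged healthy blood of the same library, with 1 pool each and no test. Ly6g stood at 53.3 CPM in healthy blood (60 UMIs), 219 in arthritic blood, 66.2 in arthritic joint, 73.2 in IL-1β peritoneum and 177 in IL-1β lung. Arthritic blood and lung lay 4.11-fold (Poisson interval 3.15 to 5.46) and 3.32-fold above healthy blood, and the joint 1.24-fold. Ly6c2 stood at 66.7 CPM in healthy blood, 183 in arthritic blood, 164 in the joint, 114 in the peritoneum and 195 in the lung. It was 1.70-fold to 2.92-fold higher in the 4 conditions, and 2.98-fold to 7.52-fold in cells with no UMI of another cell type's markers, where the healthy blood reference had only 12 cells with a Ly6c2 UMI. In lung, 10 of 380 cells held 105 of the 234 Ly6g UMIs, and 10 held 111 of the 257 Ly6c2 UMIs. In healthy blood, 10 of 509 cells held 28 of 60 and 37 of 75. The folds of both genes depend on the reference. Healthy blood of runs 1 and 2, captured separately, held 409 and 154 CPM of Ly6g, and against run 1 arthritic blood became 0.536-fold and lung 0.433-fold. Ly6c2 turned likewise, to between 0.237-fold and 0.407-fold of blood of run 1 in the 4 conditions.

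Ly6e stood at 489 CPM in healthy blood, 416 in arthritic blood and 461 in the joint, and at 197 in the peritoneum and 219 in the lung. The IL-1β conditions were at 0.404-fold and 0.447-fold. B-cell markers summed to 209.8 CPM in healthy blood against 28.6 CPM in the peritoneum and 22.7 CPM in the lung, and in cells with no UMI of another cell type's markers Ly6e stood at 0.489-fold and 0.561-fold. The median of all genes compared, those with at least 50 CPM in either condition, was itself lower there. It was −0.86 and −0.84 on the log2 scale, against −0.33 in arthritic blood and −0.37 in the joint. Relative to that median, Ly6e was at 0.733-fold in the peritoneum and 0.80-fold in the lung, and at 1.07-fold and 1.22-fold in arthritic blood and joint. On the same scale Ly6g was 5.19-fold higher in arthritic blood and 5.94-fold in lung. Summed interferon-induced transcripts were 2815 CPM in healthy blood, 3076 in arthritic blood, 6884 in the joint, 4810 in the peritoneum and 3069 in the lung. The joint, with the highest sum, had Ly6e at 0.943-fold, or 1.22-fold relative to the median. A relation between these sums and Ly6e across conditions was not tested.

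Ly6a had 4 UMIs in healthy blood (3.56 CPM), 8 in arthritic blood (2.97 CPM), 56 in the joint (5.44 CPM), 8 in the peritoneum (8.49 CPM) and 41 in the lung (31.04 CPM). The lung-to-blood ratio was 8.73, with a counting interval of 3.16 to 33.5. The 41 UMIs came from 20 of 380 cells, and 1 cell held 14 of them. Without that cell the lung stood at 20.5 CPM, still above the 1.34 to 16.4 CPM of the other 10 pools. Thinned to 500 UMIs, 5 of 380 lung cells and 2 of 509 cells of healthy blood had a Ly6a UMI, and the exact 95% intervals of these shares overlapped (0.429% to 3.04% and 0.0476% to 1.41%).

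Past 2-fold, Ly6g and Ly6c2 were higher in arthritic blood, where 0.639% of genes were higher and 2.97% lower. This share and those below cover genes with at least 50 CPM in either condition, a set that leaves out Ly6a. Ly6c2 was higher in the joint, where 12.2% were higher and 20.3% lower. In the peritoneum, where 14.5% were higher and 45.5% lower, Ly6e was past 2-fold lower and the sparse Ly6a higher. Cells between granule-low and granule-high were 109 of 292 in the peritoneum, 34 of 380 in the lung and 3 of 509 in healthy blood. In granule-low cells Ly6e stood at 251 CPM in the peritoneum and 229 CPM in the lung, against 492 CPM in healthy blood. The peritoneum was then within 2-fold. In the lung, where 14.4% were higher and 44.7% lower, Ly6g, Ly6c2 and Ly6a were past 2-fold higher and Ly6e lower.

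**Figure D4:**
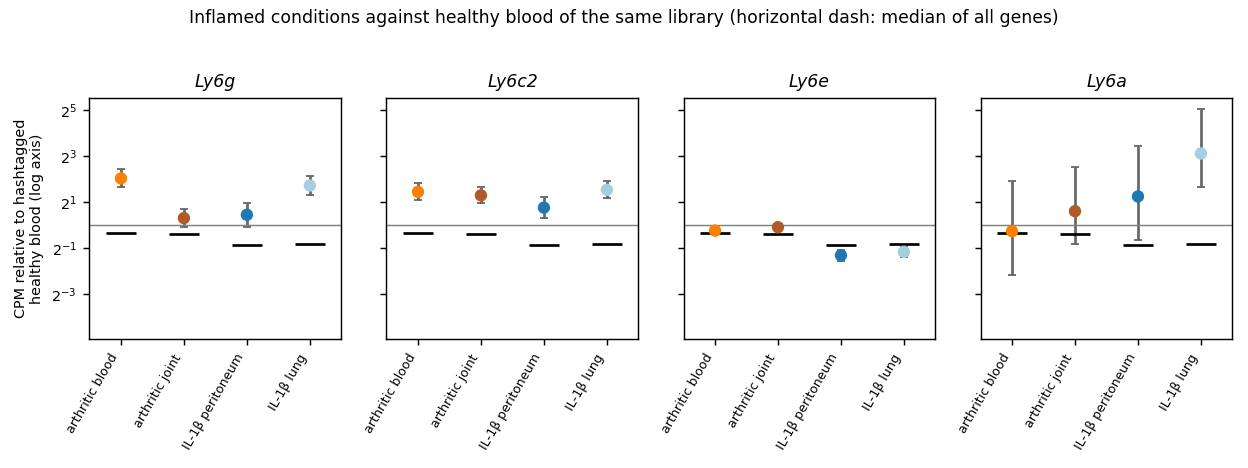
Level of each gene in 4 inflamed conditions relative to hashtagged healthy blood of the same library, on a log axis, with exact Poisson-based 95% intervals (counting error only). The horizontal dash is the median of all genes compared, those with at least 50 CPM in that condition or in healthy blood. Ly6g was 4.11-fold higher in arthritic blood and 3.32-fold in lung, Ly6e lay at 0.733-fold to 1.22-fold of the dash, and the Ly6a intervals are wide.

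Ly6g and Ly6c2 UMIs were found together more often than independent detection would give in 10 of 11 pools. At 1000 UMIs per cell, both were seen in 41.9% and 29.5% of marrow neutrophils, where independent detection would give 39.5% and 27.1%. In blood both were seen in 17.4% and 3.40%, against 10.1% and 1.79%. In arthritic blood the values were 3.12% and 1.34%, and in IL-1β lung 3.497% and 1.24%. In hashtagged healthy blood, counted among the 10, they were 0.282% and 0.172% of only 354 cells, too few to tell apart. In IL-1β peritoneum, none of 231 cells held both, where independence would give 0.412%. At this depth every marrow cell was kept, but only 426 of 1305 and 971 of 3645 blood neutrophils had enough UMIs, so the blood values describe the cells richest in UMIs. Among the cells kept, neither was seen in 16.1% and 25.3% of marrow neutrophils and in 53.5% and 76.4% of blood neutrophils. Cells of a pool share their libraries, and these are descriptions.

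Among 2039 genes with a mean of at least 50 CPM, those whose level was most like that of a member were ranked by Pearson's r of log2(CPM + 1) over the 11 pools, centred within run or library. For Ly6g these were Sri (sorcin, r = 0.96), Mgst2 (0.93), S100a9 (0.91), Ly6c2 (0.90) and S100a8 (0.90). For Ly6c2 they were Msra (0.92), Uqcrb (0.90), Ly6g (0.90), S100a8 (0.90) and Lyz1 (0.88). S100a8 and S100a9 were used to choose the cells. For Ly6e they were Fxyd5 (0.99), Tyrobp (0.99), Notch2 (0.99), the interferon-induced Ifi27l2a (0.99) and Sirpb1c (0.99). Ly6a was led by Hlx (0.95). Ly6e ran opposite to Ly6g (r = −0.72) and Ly6c2 (r = −0.82).

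Of the 37 other genes of the Ly6/uPAR list, 33 were in the files, 16 had a UMI in these neutrophils, and 7 passed the filter for the tissue comparison. Cd177, Ly6c1 and Ly6g5b were called higher in marrow than in blood and Ly6i lower, and 3 genes had no call, where 11.4% of all genes were higher and 12.8% lower. The median log2 difference of the 7 was 1.34, beside 0.03 over all genes. Cd177, a neutrophil surface protein that binds proteinase 3, stood at 590 and 680 CPM in marrow, against 549 and 152 CPM in spleen and 258 and 63.1 CPM in blood, and marrow exceeded blood 6.82-fold (edgeR FDR 0.0136). It was 11.6-fold higher in granule-high cells (edgeR FDR 2.11e-06). Plaur, the urokinase receptor, showed 2602 CPM in IL-1β lung against 148 to 554 CPM in the other 10 pools, with 196 CPM in hashtagged healthy blood.

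Ly6c1 values are uncertain. Ly6c1 had 44.2 to 76.8 CPM in the 3 libraries of run 1, 2.05 to 6.13 CPM in run 2 and at most 0.889 CPM in the inflammation library. These differ in Cell Ranger version, and per the study's methods the healthy and inflammation libraries also differ in 10X chemistry. Ly6f, another close copy, had 49 and 27 UMIs in marrow and spleen of run 1 and 1 UMI in the other 9 pools together. Reads of such copies can be assigned to one or discarded, and the Ly6c2 levels of run 1 and run 2 carry the same doubt. Within each run the order marrow above blood held for Ly6c2, at log2 1.49 in run 1 and 2.77 in run 2.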

How the data were processed

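The deposited files were UMI counts per gene and cell that the authors made with Cell Ranger on mm10 (versions 1.2.0, 2.1.0 and 3.0.2 per the study's methods), in 7 tables. The cell table that the authors deposited with the inflammation library gave its conditions and reference populations, and its cell-cycle score columns were not used. Counts of kept cells were summed per pool. The chosen genes and gene lists were picked with earlier results of these data known.

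Sums were tested in edgeR 4.0.16 (R 4.3.3; TMM, filterByExpr, quasi-likelihood, Benjamini-Hochberg FDR 0.05) with the run or pool as a block. The tissues of a run share mice, and deviations of same-numbered libraries correlated (r = 0.495, 0.444 and 0.575 over 7605 genes). The runs also differed in mouse age and Cell Ranger version, so this correlation cannot tell shared mice from other run differences. Class comparisons used pools with at least 20 cells per class. Genes named beside the members came from the Ly6/uPAR family list, the most abundant genes of the interferon, granule and marker lists, and the 5 most alike by Pearson's r. Each of the 11 pools is a single library or hashtag, so p-values measure the spread between these samples. Intervals are exact 95% and cover counting error only. Alternatives were DESeq2 1.42.0, no block, no filter, other cell rules and thinning depths, and leaving out each library. Scripts were tested on simulated data.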

Additional observations from a re-analysis of the deposited data

Results flagged for a closer look

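The interferon-high to interferon-low difference of Ly6c2 stood out because it differed between the 4 inflamed conditions and the 7 healthy pools, by 1.63 on the log2 scale (SE 0.35, edgeR FDR 0.0322, test of the interaction). It was −0.69 in a fit over the 6 healthy libraries, with values of individual libraries from −1.34 to 0.26, and 1.03 in the conditions of the inflammation library, whose hashtagged healthy blood also had the higher value in interferon-high cells, on 22 against 30 UMIs. In cells with no UMI of another cell type's markers that pool had the lower value, 12.96 against 42.4 CPM on 1 and 8 UMIs. In granule-low cells the interaction was 1.01 (edgeR FDR 0.134). In the 12 sets of 6 within-library class differences, no value met the test for a single outlying library; levels over all cells, in which spleen of run 1 stood apart from run 2, were not part of that test.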

How the results depend on the processing

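Each comparison was recomputed under the alternatives below, giving 494 values, of which 356 were classed as unchanged. Unchanged values kept their side of the threshold and, where called, their direction, or moved by less than the spread. Within this class uncalled values could change sign, and numbers of called genes could change moderately. Where a call or direction changed, the cause was not tested. All 4 genes kept direction and call in the granule comparison under every setting run. Ly6e in interferon-high cells did too. Without the replicate block, marrow against blood gave log2 2.14 for Ly6g and 2.21 for Ly6c2 with 197 genes called, marrow against spleen gave −1.84 for Ly6e with 0 genes, spleen against blood 0 genes, and the interferon comparison −0.97 for Ly6g with 31 genes. DESeq2 gave 33 genes for spleen against blood, 1.38 for Ly6c2 between marrow and spleen (FDR 0.0246), and −0.66 for Ly6g in interferon-high cells. With no filter on low counts, 75, 505 and 591 genes were called for spleen against blood, marrow against spleen and interferon. With all deposited cells, marrow against blood gave 2.50, 2.28 and −1.50 for Ly6g, Ly6c2 and Ly6e, marrow against spleen −1.19 for Ly6e, and 0 genes were called in each comparison. In edgeR's main fits 1839, 15, 244 and 378 genes were called for marrow against blood, spleen against blood, marrow against spleen and interferon.

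Cells without other markers gave 3, 141 and 231 genes for spleen against blood, marrow against spleen and interferon. Limits on mitochondrial share and genes per cell gave 5 and 115 genes for the former pair. Granule-low cells gave 559, 6 and 471 genes across the tissue comparisons, 2.26 for Ly6g and 3.08 for Ly6c2 between marrow and spleen, and, chosen after seeing the data, −0.14 for Ly6g and 0.49 for Ly6c2 with 177 genes in the interferon comparison. Over cells of all granule classes, the interferon comparison gave −0.69 for Ly6c2 in healthy libraries. In the inflammation library it gave −0.047 for Ly6g and 1.03 for Ly6c2 with 162 genes. Run 1 alone gave 1.51, 1.49 and 0.35 for Ly6g, Ly6c2 and Ly6a in marrow against blood, −1.32 for Ly6e in spleen against blood, and −0.072, 0.29, −1.15 and −0.54 for Ly6g, Ly6c2, Ly6e and Ly6a in marrow against spleen. Run 2 alone gave −2.75 for Ly6e and −2.56 for Ly6a in marrow against blood, 0.70, 0.67 and −0.054 for Ly6g, Ly6c2 and Ly6e in spleen against blood, and 1.78, 2.11, −2.70 and −3.46 in marrow against spleen.

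Leaving out 1 library at a time, marrow against blood ranged over 1.38 to 3.09 for Ly6g, 1.47 to 3.31 for Ly6c2, −2.66 to −2.03 for Ly6e and −2.12 to 0.44 for Ly6a, with 235 to 2648 genes. Without marrow of run 1, Ly6a was called lower than in blood and spleen. Spleen against blood ranged over 0.31 to 2.16, 0.18 to 1.84, −1.05 to −0.10 and 0.17 to 1.81, with 0 to 591 genes. Ly6g and Ly6c2 were called there without either marrow library or spleen of run 2, and Ly6e without spleen of run 2. Marrow against spleen ranged over 0.11 to 1.94, 0.40 to 2.24, −2.26 to −1.28 and −3.13 to −0.56, with 59 to 998 genes. Ly6g and Ly6c2 were called there without marrow or spleen of run 1, and Ly6e was lost without either blood library. The interferon comparison ranged over −0.80 to −0.57 for Ly6g, with 248 to 392 genes.

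Against healthy blood of run 1, Ly6g folds in arthritic blood, joint, peritoneum and lung were 0.536, 0.162, 0.179 and 0.433, and Ly6c2 folds 0.382, 0.344, 0.237 and 0.407, with 719 genes past 2-fold in arthritic blood. Against run 2 they were 1.42, 0.430, 0.475 and 1.15, and 1.28, 1.15, 0.798 and 1.37, with 512 genes. Cells without other markers gave 7.52, 4.58, 2.98 and 6.12 for Ly6c2, 0.968, 0.489 and 0.561 for Ly6e in arthritic blood, peritoneum and lung, 0.560 for Ly6g and 0 for Ly6a in the peritoneum, and 198 genes in arthritic blood. Granule-low cells gave 0.510 for Ly6e in the peritoneum. Relative to the median of all genes compared, chosen after seeing the data, Ly6e was 1.07, 1.22, 0.733 and 0.80. On that scale Ly6c2 was 3.19, 3.09 and 5.22 in joint, peritoneum and lung, and Ly6g 2.49 and 5.94 in peritoneum and lung. Marrow-minus-blood shares of cells were 33.7, 38.9, −23.7 and −0.103 points at 1000 UMIs for Ly6g, Ly6c2, Ly6e and Ly6a, and 64.6, 66.6 and 1.39 points for Ly6g, Ly6c2 and Ly6a without thinning. Ly6a rested on at most 56 UMIs per pool, which limits every statement on it. The granule comparison could not be run in the inflammation conditions, which had too few granule-high cells.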
